A study of Mus musculus with 6 samples.

Results

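Fibroblast growth factor (FGF) ligands and receptors were followed in cells of a brown adipose tissue (BAT) line put through adipogenic differentiation, with and without MICT1. MICT1 is the microprotein encoded by the mouse ortholog of C16orf74. The 9 genes chosen by name were the ligands Fgf1, Fgf2, Fgf7, Fgf10 and Fgf21, the receptors Fgfr1, Fgfr2 and Fgfr3, and the receptor-like Fgfrl1. Of these, 8 had a row among the 13283 genes of the table, and Fgf1 was not analysed here. RNA-seq covered 6 libraries of an immortalized mouse BAT cell line that stably expresses Cas9. The 3 Scr libraries, given the genotype WT in the sample labels, came from cells transduced with scrambled sgRNA, and the 3 MICT1 KO libraries came from CRISPR knockout pools made with sgRNAs against MICT1. Both groups were differentiated with the same adipogenic cocktail and then received 10 µM forskolin, an activator of adenylyl cyclase, for 6 h on day 6 of differentiation, so no library shows the unstimulated state. The labels do not say which sgRNA pool each MICT1 KO library came from, all libraries derive from 1 cell line, and MICT1 itself was not analysed here.

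FGFs are secreted proteins that bind receptor tyrosine kinases on the cell surface, with heparan sulfate or a klotho protein as partner. Fgf2, Fgf7 and Fgf10 are paracrine ligands held by heparan sulfate, and Fgf7 and Fgf10 act mainly on the epithelial splice form of Fgfr2. Fgf21 is an endocrine ligand, known in adipose tissue for promoting glucose uptake and thermogenesis, and needs β-klotho (Klb) beside Fgfr1 to signal. Bound receptors act through the docking protein Frs2 and the Ras-ERK cascade, which induces both ETS transcription factors and its own inhibitors of the Sprouty, Spred and Dusp families.

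The deposited values are reads of each gene scaled by a library-specific factor, here called scaled reads. Multiplied back, they correspond to between 15445878 and 17925629 reads in a library. The share taken by the ribosomal transcript Rn45s lay between 0.507% and 0.831% in 5 libraries and was 1.92% in Scr replicate 2. Changes were tested with limma-trend on log2(value + 1) in the 12507 genes with at least 10 scaled reads in at least 3 libraries, and a gene is said to rise or fall in MICT1 KO cells where its Benjamini-Hochberg adjusted p over these genes was under 0.05. Of all genes tested, 56.9% passed, 28.5% as higher and 28.3% as lower, and the median log2 fold change was -0.0053. Against that wide difference between the groups, 6 of the 8 FGF genes passed. Fgf2, Fgf7 and Fgfr1 rose, Fgf21, Fgfr2 and Fgfrl1 fell, and Fgf10 and Fgfr3 did not pass. The groups did not overlap in the same 6 genes, as was the case for 62% of all genes tested. All 8 were well enough covered in both groups to be tested, with no fewer than 31 reads in any library.

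**Figure D1:**
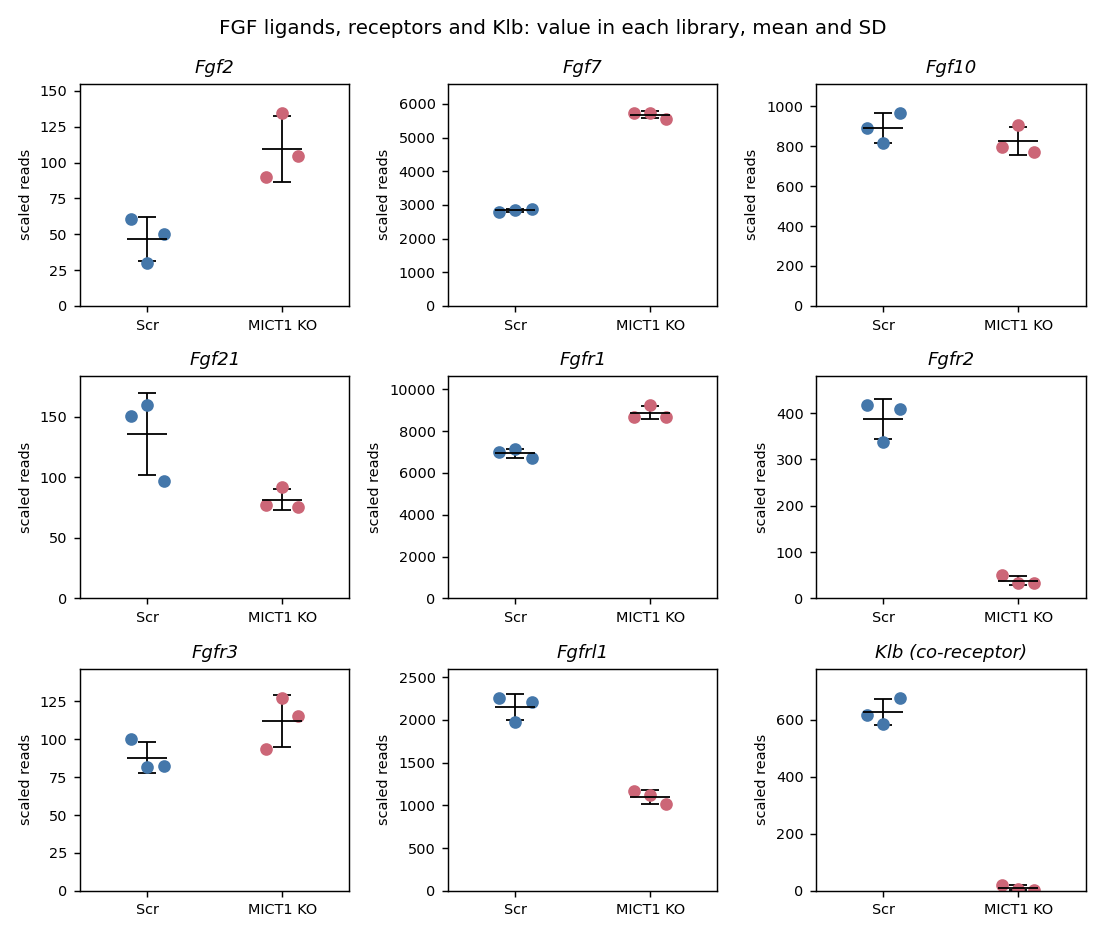
Each panel gives 1 gene, with the scaled reads (y axis, from 0) of each Scr (blue) and MICT1 KO (red) library as points, the mean as a wide bar and the SD (n = 3) as error bars. Fgf7 sat between 2788 and 2889 in Scr and between 5551 and 5739 in MICT1 KO libraries, whereas Fgfr2 and the co-receptor Klb were near the bottom of the axis in the MICT1 KO libraries.

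Fgf7, or keratinocyte growth factor, was the ligand with the highest level in both groups (chromosome 2, 126034658 to 126091185, GRCm38). The Scr libraries held 2788, 2840 and 2889 scaled reads of Fgf7, against 5733, 5739 and 5551 with MICT1 knocked out. Every MICT1 KO library was far above every Scr library, and the libraries of a group differed little. On the log2 scale Fgf7 was higher by 0.999 (SE 0.052, limma adjusted p = 1.01e-12), a 1.998-fold rise with a 95% confidence interval of 1.85 to 2.16.

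Fgf2 (chromosome 3, 37348477 to 37410106), or basic FGF, is a broad ligand that lacks a classical signal peptide. It was low, with 60.3, 29.7 and 49.9 scaled reads in the Scr group, compared with 89.6, 135 and 105 in the MICT1 KO group. All MICT1 KO values lay above all Scr values, although the spread within each group was wide. Fgf2 rose by 1.26 on the log2 scale (SE 0.27, limma adjusted p = 0.000464), 2.39-fold with an interval of 1.62 to 3.52. Of all genes tested, 7.99% rose by at least 2-fold, and of the FGF genes Fgf2 alone did, with Fgf7 just under that limit. In the GENCODE annotation 640 of its 6782 exonic bases (9.44%) lie opposite exons of Nudt6 on the other strand. The methods describe strand-specific libraries, but how strand was used in counting is not given in the sources used here. Nudt6 itself had a log2 fold change of 0.32 (limma adjusted p = 0.233), with overlapping groups.

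Fgf10 (chromosome 13, 118714699 to 118792573), which promotes growth of adipocyte precursors during development, gave 890, 817 and 969 scaled reads in the Scr group, compared with 797, 905 and 772 in the MICT1 KO group. The groups overlapped. The log2 fold change of -0.11 did not pass (limma adjusted p = 0.272), and its 95% confidence interval ran from -0.29 to 0.065.

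Fgf21 (chromosome 7, 45613890 to 45615490) gave 150, 159 and 96.7 scaled reads in Scr cells, whereas the MICT1 KO libraries had 77.2, 91.7 and 75.7. Scr replicate 3 stood well below the other Scr libraries and just above MICT1 KO replicate 2, so the groups were separate by a narrow gap. Fgf21 was lower, with a log2 difference of -0.70 (SE 0.21, limma adjusted p = 0.00841), a decrease of 1.62-fold with an interval of 1.19 to 2.21. This call rested on the Scr libraries: without Scr replicate 2, the library with the most Rn45s, the log2 fold change was -0.56 and no longer passed (limma adjusted p = 0.0620), and without Scr replicate 3 it was -0.92.

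The 250 bases before the transcription start of Fgf7 and Fgf21 are shown because these ligands moved in opposite directions. The sequences are from RefSeq (GRCm38.p6), at chr2:126034408-126034657 on the plus strand for Fgf7 and at chr7:45615491-45615740 on the minus strand for Fgf21. Capitals mark matches on either strand to the cAMP response element TGACGTCA or its half-site TGACG, which the full element contains, the nuclear receptor half-site AGGTCA, the GC box GGGCGG and the TATA box TATAAA.
Fgf7: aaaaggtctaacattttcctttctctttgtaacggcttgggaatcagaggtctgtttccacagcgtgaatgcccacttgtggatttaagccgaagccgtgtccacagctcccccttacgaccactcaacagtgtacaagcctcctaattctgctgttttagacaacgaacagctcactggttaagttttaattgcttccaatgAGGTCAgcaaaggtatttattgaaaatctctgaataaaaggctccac
Fgf21: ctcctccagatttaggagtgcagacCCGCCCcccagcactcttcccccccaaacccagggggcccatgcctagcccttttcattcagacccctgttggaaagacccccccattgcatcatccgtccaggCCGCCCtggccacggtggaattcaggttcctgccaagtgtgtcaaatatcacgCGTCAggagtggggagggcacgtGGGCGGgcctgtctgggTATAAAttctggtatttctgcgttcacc
The Fgf7 window held 1 AGGTCA, 47 bases before the start, and no other of these motifs. The Fgf21 window held a TGACG on the reverse strand 68 bases before the start, 3 GGGCGG and a TATAAA 28 bases before the start. Over all 32851 windows of this length, 14.0% held AGGTCA, 17.8% TGACG, 32.7% GGGCGG and 12.4% TATAAA. A match to these letters is a description and not evidence of binding.

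Fgfr1, the receptor through which Fgf21 acts on adipose cells, rose modestly (chromosome 8, 25518759 to 25575718). It had 6989, 7118 and 6710 scaled reads with scrambled sgRNA, compared with 8691, 9238 and 8693 after MICT1 knockout. Every MICT1 KO library was above every Scr library. The rise was 0.35 on the log2 scale (SE 0.052, limma adjusted p = 6.69e-06), or 1.28-fold with an interval of 1.19 to 1.38.

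Fgfr2 (chromosome 7, 130162451 to 130266808), the receptor whose epithelial form binds Fgf7 and Fgf10, showed the largest change of the 8 genes. It fell from 417, 337 and 408 scaled reads to 49.6, 33.7 and 32.1, and the lowest Scr library was several times the highest MICT1 KO library. The log2 difference was -3.32 (SE 0.20, limma adjusted p = 6.96e-12), a decrease of 9.99-fold with an interval of 7.52 to 13.3. Of all genes tested, 5.76% passed as lower with a decrease of at least 2-fold. The values are per gene and do not tell the splice forms of Fgfr2 apart. In GENCODE 314 of its 10328 exonic bases (3.04%), in a long transcript model, are shared with Ctbp2 on the same strand.

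Fgfr3 (chromosome 5, 33721724 to 33737068) was low in both groups, with 99.9, 81.6 and 82.4 scaled reads in the Scr group, compared with 93.4, 127 and 115 after knockout. The groups overlapped, since MICT1 KO replicate 1 was below Scr replicate 1. Its log2 fold change of 0.34 did not pass (limma adjusted p = 0.159), with an interval of -0.080 to 0.76. Of its 7158 exonic bases, 998 (13.9%) lie opposite another annotated gene.

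Fgfrl1 (chromosome 5, 108694229 to 108706950) encodes a receptor-like protein that binds FGFs but lacks the tyrosine kinase domain. It had 2260, 1972 and 2214 scaled reads in Scr cells, whereas the MICT1 KO libraries had 1172, 1120 and 1013, so the groups were far apart. The log2 difference was -0.96 (SE 0.072, limma adjusted p = 3.55e-10), a decrease of 1.95-fold with an interval of 1.76 to 2.16.

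The corresponding 250 bases of the receptor genes that fell are at chr7:130266809-130267058 on the minus strand for Fgfr2 and at chr5:108693979-108694228 on the plus strand for Fgfrl1 (RefSeq, GRCm38.p6), with the same motifs in capitals.
Fgfr2: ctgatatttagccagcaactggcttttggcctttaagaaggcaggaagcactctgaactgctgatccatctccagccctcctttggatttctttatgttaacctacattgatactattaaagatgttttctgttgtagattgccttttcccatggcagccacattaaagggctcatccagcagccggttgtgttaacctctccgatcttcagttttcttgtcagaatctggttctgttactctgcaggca
Fgfrl1: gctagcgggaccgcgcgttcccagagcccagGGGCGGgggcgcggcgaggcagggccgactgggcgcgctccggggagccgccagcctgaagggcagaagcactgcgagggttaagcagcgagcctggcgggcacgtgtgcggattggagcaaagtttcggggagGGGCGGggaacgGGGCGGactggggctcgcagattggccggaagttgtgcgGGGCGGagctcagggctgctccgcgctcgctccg
They had little in common by these measures. The Fgfr2 window, with a GC content of 44.0%, held none of the motifs, and the Fgfrl1 window, at 73.6%, held 4 GGGCGG. Of the 7 FGF genes with a window in the RefSeq table, none held the full TGACGTCA, which 1.55% of all windows held, and 2 held TGACG, Fgf2 and Fgf21. GGGCGG was found in 5 of the 7.

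**Figure D2:**
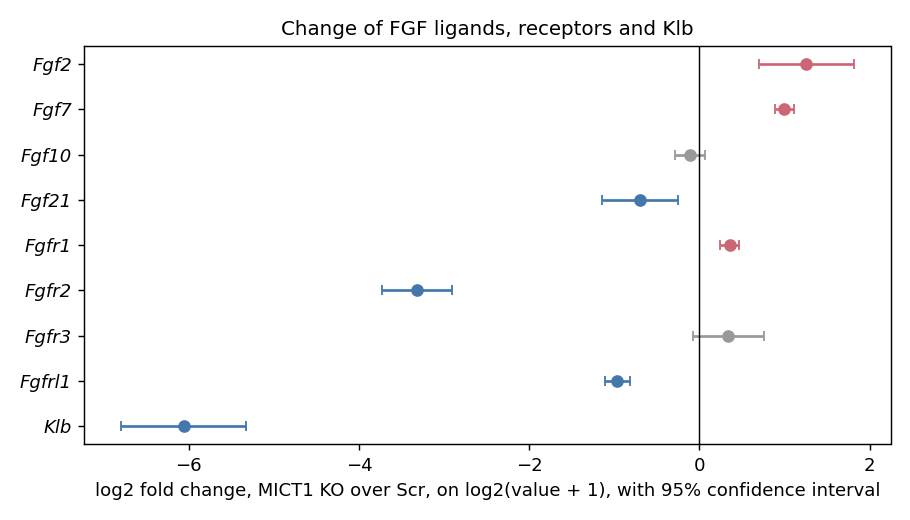
Points give the log2 fold change of MICT1 KO over Scr (x axis, on log2(value + 1)) for each gene (y axis), with 95% confidence intervals from limma-trend. Red marks genes that rose, blue genes that fell and grey those that did not pass, and Klb at -6.06 and Fgfr2 at -3.32 lie farthest from 0.

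To compare genes with each other, scaled reads were expressed as RPKM, that is, relative to the library's summed values and to the exon length of the gene in GENCODE. In Scr libraries the order was Fgf7 (53.4 ± 0.828 RPKM, SD, n = 3), Fgfrl1 (47.2 ± 4.07), Fgfr1 (42.9 ± 1.30), Fgf10 (11.8 ± 1.09), Fgf21 (8.70 ± 2.17), Fgfr2 (2.30 ± 0.289), Fgfr3 (0.752 ± 0.0999) and Fgf2 (0.421 ± 0.147). Of the neighbours in this order only Fgfrl1 and Fgfr1 overlapped between libraries. In MICT1 KO libraries Fgf7 (107 ± 1.72 RPKM) still came first, followed by Fgfr1 (55.1 ± 2.11), Fgfrl1 (24.3 ± 1.66), Fgf10 (10.99 ± 0.960), Fgf21 (5.25 ± 0.580), Fgf2 (0.992 ± 0.212), Fgfr3 (0.959 ± 0.152) and, last, Fgfr2 (0.228 ± 0.0556). There only Fgf2 and Fgfr3 overlapped. Fgfr2 thus moved from above to below Fgfr3, in scaled reads as well. In RPKM Fgfrl1 moved from the level of Fgfr1 to less than it, but this starting level depends on the division by exon length. In scaled reads Fgfr1 was above Fgfrl1 in both groups. Scr libraries had at least 6710 of Fgfr1 and at most 2260 of Fgfrl1, and MICT1 KO libraries at least 8691 and at most 1172. The first place of Fgf7 also held only per exon length, since Fgfr1 had more scaled reads in every library.

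The balance within each library shifted accordingly. The summed RPKM of the 4 ligands was 74.4 ± 1.14 (SD, n = 3) in Scr cells, compared with 124 ± 3.27 after knockout, and that of the 3 receptors with a kinase domain was 45.98 ± 1.37 and 56.3 ± 2.21. Fgf7 made up 71.8% ± 1.60 of the ligand sum in Scr and 86.2% ± 1.04 in MICT1 KO libraries (SD, n = 3). The share of Fgf10 went from 15.9% ± 1.46 to 8.83% ± 0.543 and that of Fgf21 from 11.7% ± 2.87 to 4.22% ± 0.358. These sizes depend on the division by exon length: without it the difference (MICT1 KO minus Scr) was -2.26 percentage points in place of -7.47 for Fgf21, and -10.5 in place of -7.10 for Fgf10. The smaller share of Fgf10 came with little change in its own level. Among the receptors Fgfr1 accounted for 93.4% ± 0.753 in Scr and 97.9% ± 0.110 in MICT1 KO libraries, and Fgfr2 for 4.99% ± 0.628 and 0.407% ± 0.110. For both sums and these 5 shares the groups did not overlap, and an exact two-sided permutation test gave p = 0.1, the smallest that 3 against 3 libraries allow. Sums and shares are built from the same values as the gene changes above and are not separate support for them. The shares of Fgf2 (0.565% ± 0.190 and 0.796% ± 0.153, exact p = 0.2) and Fgfr3 (1.63% ± 0.177 and 1.70% ± 0.217, exact p = 0.9) overlapped. A share of summed RPKM describes transcript levels and not protein or binding.

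**Figure D3:**
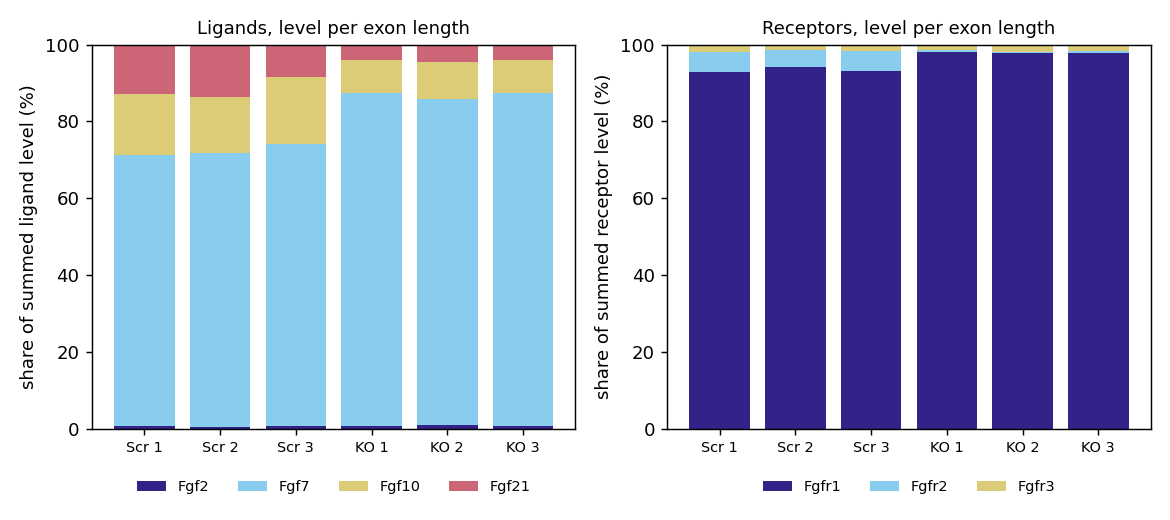
Stacked bars give the share (%) of each gene in the summed RPKM of the 4 ligands (left) and of the 3 kinase receptors (right) in each library. The Fgf7 segment grew from 71.8% to 86.2% of the ligand sum, and the Fgfr2 segment shrank from 4.99% to 0.407% of the receptor sum.

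Ratios between genes that work together or compete were compared within each library. The RPKM of Fgfr1 was 17.5, 22.1 and 17.2 times that of Fgfr2 in Scr cells, compared with 183, 287 and 283 times after knockout. The ratio of Fgfr1 to Fgfrl1, a kinase receptor over its kinase-free relative, was 0.871, 1.02 and 0.854 in Scr cells, compared with 2.09, 2.32 and 2.42 in the knockout. That of Fgf7 to Fgf10, which share their main receptor, was 4.44, 4.93 and 4.22 in Scr cells, compared with 10.2, 8.98 and 10.2 in the knockout. In each of these 3 ratios the groups were apart (exact permutation p = 0.1, the smallest possible). For Fgfr1 over Fgfr2 or Fgfrl1 this had to be so, since both genes were already apart and moved in opposite directions. The test therefore adds nothing to the gene changes there. The level of these ratios, but not their change between the groups, depends on the exon lengths used.

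Genes whose pattern over the 6 libraries was most like that of the highest ligand and the highest receptor were found by Pearson correlation of log2(value + 1). For Fgf7 they were Lif, Asf1b and Fbxw7 (r = 0.999 each), and for Fgfr1 Ptprn, Rab11fip1 and Abtb2 (r = 0.999 each). A correlation above 0.99 was reached by 351 genes for Fgf7 and 135 for Fgfr1, and any gene with a steady difference between the groups has this pattern.

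Klb, the co-receptor that Fgf21 needs, was close to the limit of detection in the MICT1 KO libraries. It had 617, 587 and 678 scaled reads in Scr cells, whereas the knockout libraries had 21.0, 6.32 and 4.15. Klb met the filter because of the Scr libraries. The log2 difference was -6.06 (SE 0.35, limma adjusted p = 5.47e-12). The size of this change depends on few reads, with 4 in the lowest MICT1 KO library, and it ranged from -6.67 to -5.63 when single libraries were left out, with the lower end without MICT1 KO replicate 1. In RPKM, Fgfr1 was 4.56 to 5.59 times as high as Klb in the Scr libraries and 191 to 966 times in the MICT1 KO libraries.

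Adipocyte genes fell in the same libraries. All 13 adipocyte markers tested, among them Adipoq, Fabp4, Plin1 and Pparg, were lower in MICT1 KO cells, with a median log2 fold change of -3.70, and their summed level went from between 7767 and 9406 CPM (values relative to the library sum, without regard to gene length) in Scr to between 922 and 1323 in MICT1 KO libraries. The brown fat marker Ucp1 was present but low, at no more than 30.5 scaled reads in any library. Ucp1, Adipoq, Cfd and Slc2a4 met the filter only because of the Scr libraries. They thus entered the count of 13 through the group where they were higher. The paper also reports lower adipogenic genes, among them Pparγ and Fabp4, in its CRISPR knockout cells. In contrast, it found these markers unchanged after MICT1 knockdown in brown adipocytes that were already differentiated. Nor did it find them significantly different in BAT of mice lacking MICT1 in Ucp1-expressing cells. For the CRISPR cells, the paper calls an effect of the deletion on differentiation in culture plausible, which was not tested here. Of 12 fibroblast and progenitor markers 9 were tested, 5 higher and 3 lower, with a summed level of 2304 to 2689 CPM in Scr and 3728 to 3898 in MICT1 KO libraries. The markers Dcn (4.75), Ly6a (1.39) and Col1a1 (0.77) were among those that rose on the log2 scale. Those that fell were Dlk1 (-3.47), Dpt (-1.34) and Pdgfra (-0.19, with overlapping groups). By far the largest rises in scaled reads were those of the matrix genes Col1a1 (mean 17955 in Scr, 30595 in MICT1 KO) and Dcn (365 and 9707). The rise of the summed level mostly reflects these genes. Col3a1, another large part of the sum, did not pass (mean 16430 in Scr, 15855 in MICT1 KO). Of 8 macrophage, 7 endothelial and 8 skeletal muscle markers only 4, 1 and 2 were listed, together at most 39.2, 2.03 and 7.37 CPM in a library, and the defining markers Adgre1, Ptprc, Pecam1 and Myod1 were not listed. Of the listed ones, Cd14 (1.24) and Cdh5 (1.71) were higher, and Cdh5 met the filter because of the MICT1 KO libraries. A gene was listed only where it was above 0 in every library, so a marker that was not listed may still be present in some. In bulk libraries, fewer cells of a type and less RNA per cell cannot be told apart, and the part of these markers in the changes of Fgfr2, Klb, Fgf7 and the other FGF genes was not tested.

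Genes for co-receptors, proteoglycans and other FGF-binding proteins moved both ways. Of 20 co-receptor, proteoglycan and FGF-binding genes 16 were tested, of which 9 rose, 2 fell and 5 did not pass (68.8% called, against 56.9% of all genes tested), and the median change was 0.43 on the log2 scale. Their summed level overlapped between the groups, at 3197 to 3320 CPM in Scr cells and 3169 to 3310 CPM in the knockout. Flrt2, a membrane protein that binds FGF receptors, rose from 13.9, 31.5 and 24.4 to 195, 205 and 209 scaled reads, by 3.15 on the log2 scale (limma adjusted p = 2.78e-09). Its relative Flrt3 did not pass (0.10, limma adjusted p = 0.657). Cdh2, the N-cadherin that associates with Fgfr1, rose by 1.84 (limma adjusted p = 2.14e-14), and Fgfbp3, a secreted protein that releases FGFs from the matrix, by 1.36 (limma adjusted p = 8.09e-05). Gpc1, a glypican that presents FGFs to their receptors, rose by 0.37 (limma adjusted p = 2.17e-05). The syndecan Sdc1 fell by 0.53 on the log2 scale (limma adjusted p = 2.01e-08), whereas for Sdc4 the difference was 0.0094 (limma adjusted p = 0.909).

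Enzymes that build or trim heparan sulfate moved both ways. Of 20, 15 were tested, with 7 higher, 3 lower and 5 that did not pass (66.7% called, near the 56.9% of all genes tested), and a median log2 fold change of 0.074. Hpse, the heparanase that cleaves heparan sulfate chains, had 71.2, 72.3 and 67.2 scaled reads in Scr cells, whereas the knockout libraries had 521, 565 and 518, a rise by 2.91 on the log2 scale (SE 0.14, limma adjusted p = 2.27e-13). Extl1 (1.91) and Extl2 (0.70), glycosyltransferases of the exostosin family, also rose. Extl1 had at most 5.56 scaled reads in Scr, met the filter only through the MICT1 KO libraries and did not pass without Scr replicate 3 (1.41, limma adjusted p = 0.0809). The sulfotransferases Hs6st2 (-1.52) and Ndst1 (-0.52) and the exostosin-like Extl3 (-0.55) fell.

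In the relay from receptor to ERK, no gene changed by more than 0.59 on the log2 scale. All 27 genes of this list were tested, of which 8 rose, 13 fell and 6 did not pass (77.8% called, against 56.9% of all genes tested), and the median change was -0.13 on the log2 scale. The largest rises among genes whose groups did not overlap were those of Gab1 (0.39), Crkl (0.30) and Hras (0.29), and the largest falls those of the ubiquitin ligase Cblb (-0.59) and the exchange factor Sos2 (-0.48). Frs2, the docking protein of FGF receptors, had a log2 fold change of -0.16 (limma adjusted p = 0.0429) and did not pass in 8 of the 14 alternatives, among them scaling by library size (-0.15, limma adjusted p = 0.0544) and the fits without Scr replicate 1 (-0.13, limma adjusted p = 0.153), Scr replicate 2 (-0.17, limma adjusted p = 0.0808), MICT1 KO replicate 1 (-0.15, limma adjusted p = 0.0859) or MICT1 KO replicate 3 (-0.14, limma adjusted p = 0.129). Frs3 did not pass (0.22, limma adjusted p = 0.373).

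**Figure D4:**
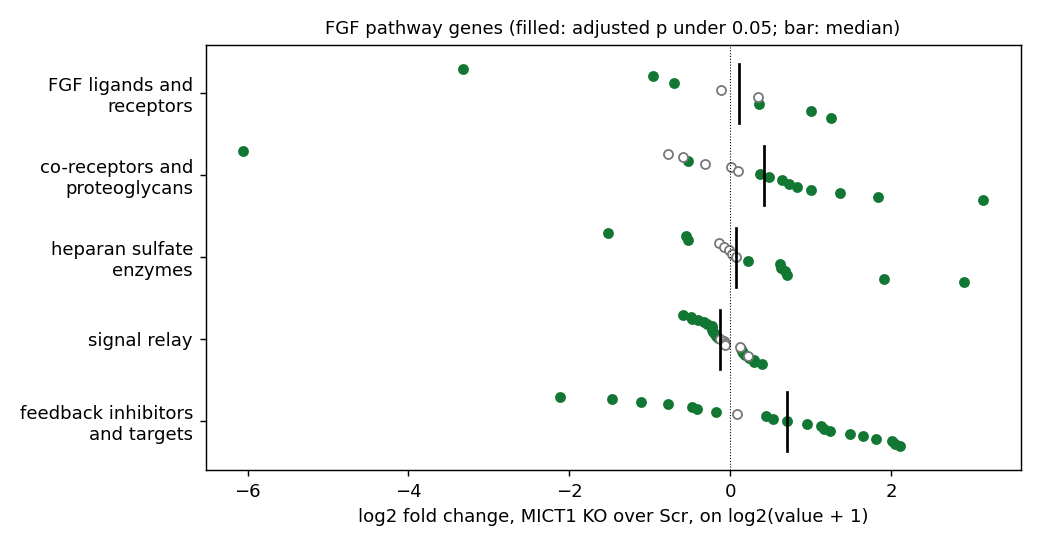
Each point is the log2 fold change of 1 tested gene (x axis, MICT1 KO over Scr on log2(value + 1)) in the FGF ligands and receptors and 4 lists of pathway genes (y axis), filled where the adjusted p was under 0.05, with the median as a bar. The relay genes lie within 0.6 of 0, whereas the feedback inhibitors and targets spread from -2.12 to 2.11.

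Genes that FGF receptors induce through ERK differed between the groups in almost every case. Of 22 feedback inhibitors and targets 21 were tested, of which 13 rose, 7 fell and 1, Dusp5, did not pass (95.2% called, against 56.9% of all genes tested). Their median change was 0.70 on the log2 scale. These genes also answer to other inputs, including cAMP and serum. The list, like the other pathway lists, was chosen with earlier results of these data known, so its share of called genes is not an independent test. The ETS factors Etv1 (1.12), Etv4 (2.01) and Etv5 (0.53) rose together, and the immediate early genes Egr1 (1.82), Fos (1.24), Ier2 (0.70) and Ier3 (2.11) did so too. Egr1 had 1908, 1927 and 1688 scaled reads in Scr cells, compared with 6516, 6046 and 6874 in the knockout. Fosl1 (-0.77) and Myc (-0.18) fell. For Myc the groups overlapped, and the call was lost without Scr replicate 2 (-0.16, limma adjusted p = 0.0925), Scr replicate 3 (-0.12, limma adjusted p = 0.137) or MICT1 KO replicate 2 (-0.14, limma adjusted p = 0.101).

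The inhibitors were divided. Dusp6, a phosphatase that inactivates ERK, rose from 331, 362 and 279 scaled reads to 896, 902 and 923, by 1.49 on the log2 scale (SE 0.0998, limma adjusted p = 5.62e-11). The FGF receptor antagonist Il17rd rose by 2.05 (limma adjusted p = 0.000193), from at most 14.2 scaled reads in Scr, and met the filter because of the MICT1 KO libraries. Spry2 (0.45) and Spred3 (0.96) rose too. In contrast, Spry1 went from 147, 168 and 166 scaled reads to 40.04, 23.2 and 50.8, with a log2 difference of -2.12 (SE 0.26, limma adjusted p = 5.38e-07). Spry4 (-1.47), Spred1 (-0.41), Spred2 (-0.48) and the phosphatase Dusp4 (-1.10) fell with it. Relatives of the same family, such as Spry1 and Spry2, thus moved in opposite directions in the same libraries.

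**Figure D5:**
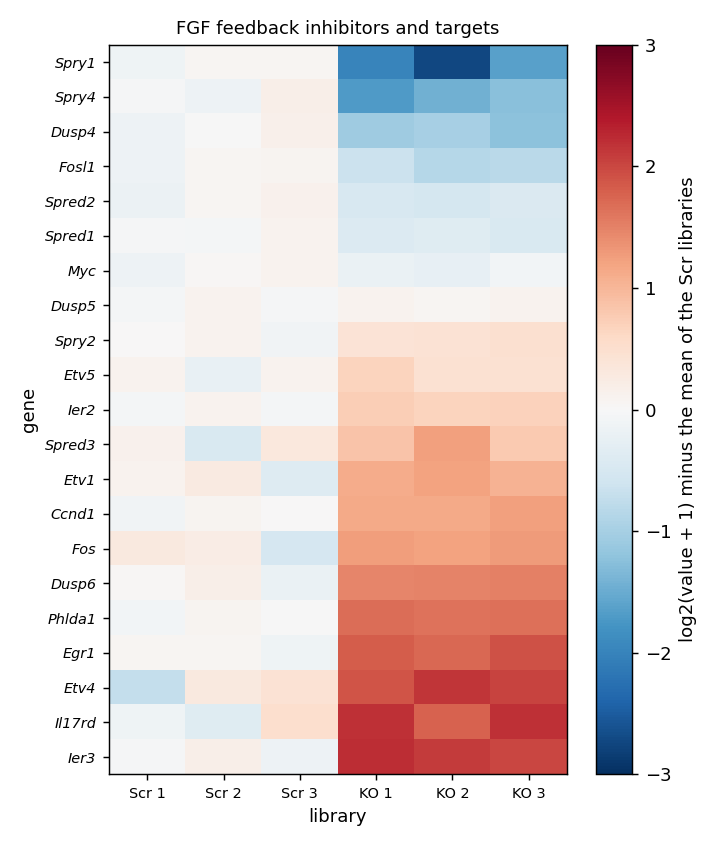
Colours give log2(value + 1) minus the mean of the 3 Scr libraries for each of the 21 FGF feedback inhibitors and targets (rows, ordered by log2 fold change) in each library (columns), from blue (lower) to red (higher). Spry1, Spry4 and Dusp4 are blue and Ier3, Il17rd, Etv4 and Egr1 are red in all 3 MICT1 KO libraries.

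Of the other 18 genes of the FGF family, 3 had a row in the table. Fgf11, an intracellular FGF homologue that does not act as a secreted ligand, had 25.7, 42.6 and 24.4 scaled reads in Scr cells, compared with 48.6, 71.6 and 53.9 in the knockout (0.91 on the log2 scale, limma adjusted p = 0.0163). The call was lost without Scr replicate 1 (0.81, limma adjusted p = 0.0540), Scr replicate 3 (0.77, limma adjusted p = 0.0596) or MICT1 KO replicate 2 (0.75, limma adjusted p = 0.0873). Fgf18 (1.36, limma adjusted p = 0.0814) and Fgf22 (-0.57, limma adjusted p = 0.435) did not pass, at no more than 24.2 and 21.8 scaled reads, and Fgf18 passed when MICT1 KO replicate 1 was left out (1.87, limma adjusted p = 0.0250). It was below the filter, and so not tested, with the filter at 50 and without Scr replicate 3, MICT1 KO replicate 2 or MICT1 KO replicate 3.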

How the data were processed

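RNA-seq was analysed in 3 Scr and 3 MICT1 KO libraries, assigned to groups from the sample labels. Per the methods, alignment to NCBI38/mm10 was done in Partek, and STAR and DESeq2 are further tools named in the submitters' processing notes. The counting model and gene annotation are not given in the sources used here. The authors deposited 1 normalized signal value for each gene and library. Between 88.7% and 90.2% of values under 20 were whole multiples (within 0.01) of a step that differed between libraries, so each value was taken to be an estimated read number over a size factor. Since values are not whole counts, the count test foreseen for whole counts was not run. The table lists only genes above 0 in every library.

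Groups were compared by limma-trend (limma 3.58.1, R 4.3.3) on log2(value + 1) after removal of genes with fewer than 3 libraries at 10 scaled reads or more, with adjustment over all 12507 genes tested. The function was tested on simulated data. Fold changes on this scale understate the change of low genes. RPKM used exon lengths of GENCODE vM21, and positions and promoters are from RefSeq on GRCm38, the build named in the labels. Shares and ratios were compared with exact permutation tests over libraries. Genes named were all FGF ligands and receptors listed, the other listed FGF family genes, up to 3 largest rises and falls of each pathway list among genes called without overlap, and genes whose products bind FGFs or their receptors, of which 1 is not reported here. Etv1, Etv5, Egr1, Fos, Ier2, Fosl1, Myc, Dusp5, Dusp6, Spry2, Spred1, Spred2, Spred3 and the marker genes were added after their values were seen. The FGF genes and all lists were chosen with earlier results of these data known. Replicates are described as biological, and p-values measure the spread between these cultures of 1 cell line. Alternatives were library size scaling, quantile normalization, limma-voom, no filter or one at 50, pseudocounts of 0.5 and 5, the replicate number as a block and each library left out in turn.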

Additional observations from a re-analysis of the deposited data

How the results depend on the processing

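Over the 14 alternatives, 111 of 112 fold changes of the FGF ligands and receptors kept their direction and their side of the threshold, and the exception was Fgf21 without Scr replicate 2. All 56 counts of the 4 pathway lists stayed within 1.5 times the reported count, and the genes called over all genes tested numbered 6340 to 7150. Fold changes ran from 0.31 to 0.36 for Fgfr1 and from -3.39 to -3.19 for Fgfr2 over the settings that kept all libraries. The replicate numbers did not pair the samples: the deviations of Scr and MICT1 KO libraries with the same number correlated at -0.0236, -0.0155 and 0.0637, and 2 of the 6 libraries correlated best with their own number. With the replicate number as a block, 7055 genes and 6 FGF genes were called, and Frs2 (-0.16, adjusted p = 0.0540 from limma-trend) did not pass.

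Without division by exon length, the difference in share (MICT1 KO minus Scr) was 0.448 percentage points for Fgf2, 12.3 for Fgf7, -10.5 for Fgf10 and -2.26 for Fgf21, against 0.231, 14.3, -7.10 and -7.47 per exon length. This follows from their exon lengths, of which that of Fgf21 is the shortest among the ligands. The difference in the share of Fgfr3 ran from -0.0121 to 0.192 points when single libraries were left out, so its direction is not settled. Among other genes, Sdc4 ranged from -0.054 to 0.065 when single libraries were left out and stood at -0.059 with quantile normalization, and Fgf22 ranged from -0.99 to 0.12. Of the other genes named, Extl1, Fgf11, Frs2, Myc and Pdgfra lost their call in 1 or more alternatives, and Fgf18 gained one. The cause of these moves was not tested. With as few as 32 and 31 reads in a library, Fgf2 and Fgfr2 are less precisely measured than Fgf7 or Fgfr1.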
